A study of Mus musculus with 24 samples.

Results

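The 3 arrays of mammary glands taken 76 h after the first injection of progesterone were compared with the 3 arrays taken at 28 h, which makes 6 arrays of the 24 in the series. The arrays were chosen by treatment and time alone, from their sample titles, and no oil array entered the comparison. All mice were nulliparous BALB/c females ovariectomized at 6 weeks of age and left for 2 weeks, so that every group, the vehicle groups included, lacked the ovarian source of the hormone. The hormone groups received 1 mg of progesterone in 100 µl of sesame oil under the skin each day, and the oil groups the same volume of oil alone. Glands were taken at 4, 16, 28 or 76 h, counted from the first dose. On a schedule of 1 injection every 24 h, the 28 h mice would have had 2 injections and the 76 h mice 4, and both times lie 4 h past a whole number of days. Hours of exposure and the number of injections therefore cannot be told apart in this comparison. Each array carried RNA pooled from 5 mice, so that a group of 3 arrays stands for 15 mice, and the p-values below measure the spread between such pools, which the labels call biological replicates.

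Progesterone acts in the mammary gland through a nuclear receptor made by a subset of luminal cells. Those hormone-sensing cells secrete factors such as the WNT ligand Wnt4 and the cytokine RANK ligand, encoded by Tnfsf11, and neighbouring cells that lack the receptor then divide. Under sustained hormone, as in early pregnancy, the ducts branch and the luminal progenitors that later form milk-secreting alveoli expand, a step that in the mouse needs the transcription factor Elf5. The gland is embedded in a fat pad, so that RNA of the whole gland is a mixture of epithelium, fibroblasts, vessels, immune cells and adipocytes.

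Expression was read as the deposited linear intensity of Affymetrix Mouse Genome 430 2.0 arrays and compared on the log2 scale. The median intensity of the 6 arrays lay between 64.7 and 66.9, and values below these medians lie near background, where a fold change is imprecise. Across genes the log2 values of arrays of the same group correlated with r from 0.976 to 0.993, and those of 28 h and 76 h arrays with r from 0.946 to 0.966. The cell types of the gland were all measured through their markers. At 28 h the luminal keratin Krt18 had an intensity of 2035 ± 505 (mean ± SD, n = 3 arrays here and below), the basal keratin Krt14 of 488 ± 108, and the adipocyte hormone Adipoq of 11080 ± 602. A sign of RNA length, the log2 ratio of 3' to 5' control probes, was 0.460 ± 0.0765 at 28 h and 0.399 ± 0.0476 at 76 h for actin (exact two-sided permutation p = 0.3). For Gapdh it was -0.0920 ± 0.0217 and -0.140 ± 0.0293 (exact permutation p = 0.2, where 0.1 is the smallest that 3 against 3 arrays can give).

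Between 28 h and 76 h of progesterone, many genes of mitosis, of the luminal and basal epithelium, of the WNT pathway and of the connective tissue matrix rose. Tnfsf11, the gene of RANK ligand, rose too, and many genes of fat synthesis and storage fell. In oil 22 matrix, 5 WNT and 2 basal genes rose over the same interval and none in these lists fell. Of 12352 genes tested, 1221 (9.89%) were higher at 76 h and 659 (5.34%) lower at an adjusted p under 0.05 (limma with Benjamini-Hochberg adjustment), which is 15.2% in all. The arrays of both times did not overlap for 4504 genes (36.5%). The median log2 difference over all genes was 0.02. The number of calls depended on single arrays, at 854 without 76 h replicate 1, 1071 without 76 h replicate 2 and 1210 without 28 h replicate 2.

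With 1 probe set read per gene, the largest fitted rise was that of Serpinb11, a protease inhibitor of the serpin family. Its intensities were 29.2, 19.0 and 14.1 at 28 h and 468, 371 and 282 at 76 h, so that every 76 h array stood far above every 28 h array, the latter lying below the array median. The fitted difference was 4.204 ± 0.357 on the log2 scale (± SE here and below, adjusted p = 3.81e-06). Its size rests on 28 h values near background. Of the 12 largest rises, those of Serpinb11, Kera, Lrrc15, Rspo1, Lama1, Il17b and Frem1 passed the filter on low values through the 3 progesterone arrays of 76 h alone. The other 11 of the 12 largest rises were those of Kera (3.82, with its 28 h values near the floor of 7.38), a proteoglycan of the corneal stroma, Atp6v1b1 (3.63), a subunit of a proton pump, the membrane mucin Muc15 (3.36), Lrrc15 (3.21, and 5.02 by its other probe set), a membrane protein of fibroblasts, the fibrillin Fbn2 (3.21), Rspo1 (3.19), the laminin chain Lama1 (3.17), the secreted protein Cthrc1 (3.04), the epithelial ETS factor Ehf (2.90), the cytokine Il17b (2.87) and Frem1 (2.84), a matrix protein of basement membranes. All of these but Muc15 lay below the array median at 28 h. Some of the same genes also differed between the oil arrays of these times, by 2.46 for Atp6v1b1, 1.37 for Cthrc1, 1.14 for Fbn2 and 0.99 for Frem1, all called.

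Falls were smaller than rises, beyond the milk protein gene Csn2 described below. Ltf, encoding the iron-binding protein lactoferrin, had intensities of 3104, 2040 and 2622 at 28 h and 869, 709 and 783 at 76 h, with no overlap. It fell by 1.70 on the log2 scale, or 3.25-fold (adjusted p = 1.09e-06). Gys2, the liver form of glycogen synthase, stood at 447, 388 and 549 and then at 150, 169 and 146, again apart, a fall of 2.96-fold (adjusted p = 2.01e-05). Cidea, a lipid droplet protein (-1.47 on the log2 scale), the water channel Aqp11 (-1.47), Ppara (-1.47), a nuclear receptor that drives fatty acid oxidation, and the exoribonuclease Xrn1 (-1.46) fell likewise. Xrn1 was also lower at 76 h in the oil arrays (-1.44, adjusted p = 0.00317). With progesterone another probe set read -1.52 for Aqp11, called, and -0.77 for Ppara and -0.45 for Xrn1, not called. The remaining largest falls, Fam229a (-1.94), Abcc12 (-1.64), Ntng2 (-1.58), Ttc25 (-1.57) and Gap43 (-1.47), had 76 h arrays below the array median. Of these, Fam229a, Abcc12, Ntng2 and Gap43 lost the call without at least 1 array, at adjusted p up to 0.201.

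Genes of mitosis moved most as a group. Of 55 tested members of a list of mitosis and G2 genes, 48 rose and none fell, with a median log2 difference of 1.37 beside 0.02 for all genes, and the count was 43 to 48 with any of the 6 arrays left out. Ccnb2 encodes cyclin B2, the partner of the mitotic kinase Cdk1. Its intensities were 92.1, 177 and 149 at 28 h and 841, 701 and 473 at 76 h. The 76 h arrays were all higher, though they spread widely among themselves, and the rise was 4.86-fold (log2 2.28 ± 0.25, adjusted p = 3.13e-05). Mki67, the proliferation marker known as Ki-67, stood at 240, 457 and 320 and then at 1241, 1168 and 846, without overlap (log2 1.71 ± 0.22, adjusted p = 0.000114). Pbk, a mitotic kinase, stood at 80.3, 76.1 and 84.4 and then at 535, 414 and 318, a rise of 5.15-fold. Replicate 3 had the lowest value of the 76 h arrays for each of these genes. The kinases Melk (2.34) and Ttk (2.06), the latter acting in the spindle checkpoint, and the mitotic kinesin Kif20a (2.22) also rose from levels below the array median, and the S and G2 phase cyclin Ccna2 rose by 1.49. The 7 members that were not called, named here after their values had been seen, were Fam83d (0.66), Cdc25b (0.26), Mybl2 (-0.19), Cenpf (-0.21), Foxm1 (-0.23), Kif22 (-0.42) and Kif15 (-0.64).

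The oil arrays gave the reverse picture for this list: none of the 55 rose and 6 fell between 28 h and 76 h, with a median of -0.45. The difference of both contrasts was above 0 with a call for 47. At 28 h itself the hormone arrays did not lead. As a score for each array, every member's log2 value was taken minus its own mean of all 24 arrays and averaged over the list. The score was -0.54, 0.02 and -0.30 on the 28 h progesterone arrays, 0.26, 0.18 and 0.20 on the 28 h oil arrays, and 1.25, 1.00 and 0.69 on the 76 h progesterone arrays. The 28 h hormone arrays were thus all below the 28 h oil arrays, and the 76 h hormone arrays above every other array of the series. On the 4 h and 16 h progesterone arrays the score lay between -0.40 and 0.25.

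**Figure D1:**
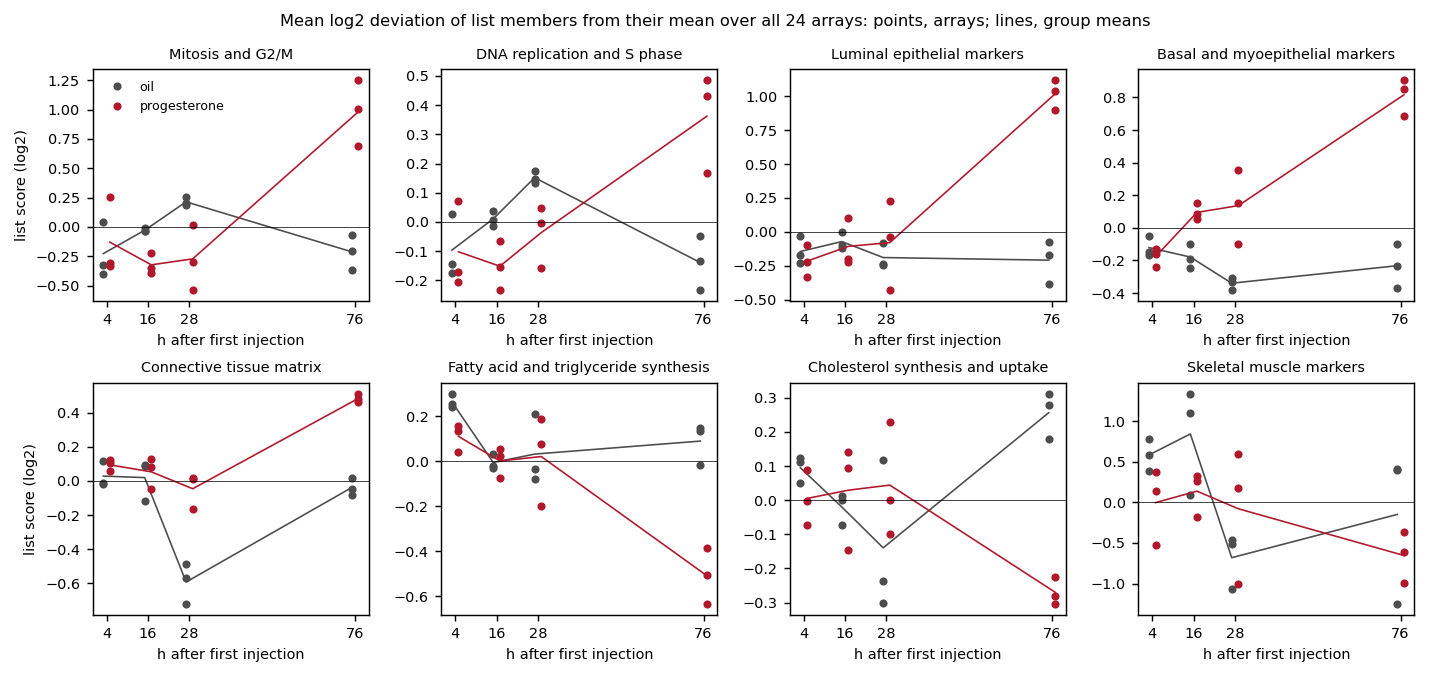
List scores (log2, each member centred on its own mean of 24 arrays and averaged over the list, vertical axis) against hours after the first injection, for 8 gene lists; points are arrays, shifted slightly sideways by treatment, and lines join group means. For mitosis, luminal and basal genes the 3 progesterone arrays of 76 h lie above all others, and for fatty acid synthesis below all others.

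Because the mitosis genes moved together, the sequences upstream of their transcription starts are shown with letter patterns known from cell cycle promoters. Matches were sought in the 250 bases before the RefSeq start (build GRCm38.p6) on both strands, for CCAAT, for the CHR element of late cell cycle genes (TTTGAA or TTTAAA), and for E2F-like sites (TTTCCCGC, TTTGGCGC, TTTCGCGC or TTTCCCGG). Shown are the 4 mitosis and 2 replication genes with the largest rises among those with exactly 1 promoter entry. Genes of 1 chromosome were left out of this choice, so that a gene with a larger rise can be missing. Sequences are given 5′ to 3′ on the strand of the gene, with every match in capitals (CCAAT reads ATTGG, and TTTGAA reads TTCAAA, where the match is on the other strand):
Ccnb2, chr9:70421555-70421804, - strand: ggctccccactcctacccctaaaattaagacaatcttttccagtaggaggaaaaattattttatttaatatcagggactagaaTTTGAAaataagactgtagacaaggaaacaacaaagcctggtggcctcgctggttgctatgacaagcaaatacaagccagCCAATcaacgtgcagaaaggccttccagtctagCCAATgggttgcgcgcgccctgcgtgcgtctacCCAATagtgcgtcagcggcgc
Cdk1, chr10:69352913-69353162, - strand: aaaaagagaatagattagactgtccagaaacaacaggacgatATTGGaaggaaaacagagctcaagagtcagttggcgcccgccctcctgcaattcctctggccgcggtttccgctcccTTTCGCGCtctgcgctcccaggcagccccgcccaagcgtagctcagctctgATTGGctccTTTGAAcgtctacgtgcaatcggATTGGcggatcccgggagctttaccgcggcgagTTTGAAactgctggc
Ttk, chr9:83834439-83834688, + strand: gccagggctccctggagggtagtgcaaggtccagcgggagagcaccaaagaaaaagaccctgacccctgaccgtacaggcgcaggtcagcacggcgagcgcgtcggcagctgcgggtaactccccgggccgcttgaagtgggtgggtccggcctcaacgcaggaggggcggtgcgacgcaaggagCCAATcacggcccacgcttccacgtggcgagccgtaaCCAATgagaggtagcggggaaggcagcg
Melk, chr4:44300667-44300916, + strand: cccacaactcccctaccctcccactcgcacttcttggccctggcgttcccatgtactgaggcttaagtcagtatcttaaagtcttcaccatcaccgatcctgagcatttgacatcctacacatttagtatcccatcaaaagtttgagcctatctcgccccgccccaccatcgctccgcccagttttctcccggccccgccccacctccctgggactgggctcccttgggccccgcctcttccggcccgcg
Mcm6, chr1:128359706-128359955, - strand: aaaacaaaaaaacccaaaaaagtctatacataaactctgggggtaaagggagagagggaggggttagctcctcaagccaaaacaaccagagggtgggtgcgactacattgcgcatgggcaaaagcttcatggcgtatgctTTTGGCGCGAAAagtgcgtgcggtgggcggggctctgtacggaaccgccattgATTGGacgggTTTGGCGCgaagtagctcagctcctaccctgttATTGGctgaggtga
Tk1, chr11:117826015-117826264, - strand: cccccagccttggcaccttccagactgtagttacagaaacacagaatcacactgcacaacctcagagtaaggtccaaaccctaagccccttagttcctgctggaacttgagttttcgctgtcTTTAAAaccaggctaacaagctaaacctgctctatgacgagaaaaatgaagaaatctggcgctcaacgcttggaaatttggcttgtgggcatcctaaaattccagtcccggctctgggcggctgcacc
Ccnb2 holds 3 CCAAT matches and 1 CHR match, and Cdk1 holds 3 CCAAT, 2 CHR and 1 E2F-like match. Ttk holds 2 CCAAT matches, Melk has no match in this window, Tk1 has 1 CHR match, and Mcm6 has 2 CCAAT and 3 E2F-like matches, of which 2 overlap on opposite strands. Of the 44 mitosis genes with 1 promoter entry, 32 (72.7%) held CCAAT, 20 (45.5%) CHR and 17 (38.6%) both, beside 36.3%, 17.6% and 6.3% of the 7906 tested genes with 1 entry. E2F-like letters stood upstream of 5 of these 44 (11.4%) and of 6 of 32 replication genes (18.8%), beside 4.79% of all. High CHR shares were not confined to mitosis genes. CHR letters stood upstream of 6 of 16 connective tissue matrix genes (37.5%) and 5 of 14 fatty acid and triglyceride synthesis genes (35.7%). In these lists CCAAT stood upstream of 31.2% and 50%, and both of 6.25% and 14.3%. Of 12 luminal genes 25% held CCAAT and 8.33% CHR. Among the 745 genes called higher with 1 entry, 10.5% held both CCAAT and CHR, and among the 412 called lower 3.4%. A match of letters is a description and not a measured binding site.

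DNA replication genes rose by less and fewer of them were called. Of 48 tested, 19 rose and 1 fell (median 0.41), where the oil arrays gave no rise and 9 falls (median -0.23), and the difference of the contrasts was called above 0 for 19. Mcm6, a subunit of the replicative helicase, stood at 621, 693 and 596 at 28 h and at 1396, 1248 and 1166 at 76 h, with no overlap, a rise of 1.99-fold (adjusted p = 0.000393). The hemimethylated DNA binder Uhrf1 (1.16), thymidine kinase, Tk1 (1.12), the ribonucleotide reductase subunit Rrm1 (0.99) and the DNA ligase Lig1 (0.86) rose as well. Mcm2, another helicase subunit, had 385, 440 and 399 against 515, 552 and 430, where the groups overlap, and was not called (0.28 ± 0.16, adjusted p = 0.253). The member that fell was the polymerase subunit Pold2 (-0.45, and -0.45 in oil), named after its value had been seen, and its call was lost without any 1 array but 28 h replicate 3. The count of rises was 9 without 76 h replicate 1, 10 without 76 h replicate 2 and 11 without 28 h replicate 1. Among 20 DNA repair genes 6 rose and none fell, led by the checkpoint kinase Chek1 (1.08), Topbp1 (0.74), Mre11a (0.65), Timeless (0.57) and the helicase Blm (0.55). That count was 1 without 28 h replicate 1, 28 h replicate 2 or 76 h replicate 1, and 2 without 76 h replicate 2. Blm lost its call whichever 1 array was left out.

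Regulators of G1 moved in both directions. Of 23 tested, 6 rose and 3 fell (26.1% and 13%, beside 9.89% and 5.34% of all genes). The cyclin-dependent kinase Cdk4 stood at 1205, 1063 and 1136 and then at 1818, 1791 and 1848, narrowly spread and apart (log2 0.68 ± 0.10, adjusted p = 0.000372). Its inhibitor relative Cdkn1c, p57, rose by more, from 372 ± 11.2 to 813 ± 123 (2.17-fold, adjusted p = 2.85e-05), and also rose in oil (0.42). Cyclin D1, Ccnd1, rose from 1275, 1051 and 1022 to 1615, 1550 and 1295, with no overlap but a small margin (log2 0.41 ± 0.13, adjusted p = 0.0363), and was not called without 28 h replicate 2 or 3 or 76 h replicate 1 or 2. Myc (0.57), E2f3 (0.71) and the inhibitor Cdkn1b (0.33) rose, and the inhibitor Cdkn2d fell by 0.61 on the log2 scale. Each of these 4 lost the call without at least 2 arrays, at adjusted p up to 0.144. Cdkn1a, p21, was at 210, 212 and 207 and then at 246, 242 and 258, apart but not called (0.24, adjusted p = 0.207), while it rose by 0.84 in oil. The count of G1 rises was 2 without 28 h replicate 2 or 76 h replicate 1. The count of falls was 1 without 28 h replicate 1 and 0 without 76 h replicate 1 or 2.

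Among genes known to answer progesterone in the mammary gland, 11 of 24 tested rose from 28 h to 76 h and none fell (median 0.33). In oil none of the 24 was called (median -0.30), and 10 were called above 0 for the difference. The list holds genes of the hormone-sensing cell, its secreted signals and the cells that receive them.

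Among genes of the hormone-sensing cell, read here in RNA of whole glands, Pgr itself stood at 182, 110 and 244 at 28 h and at 312, 255 and 269 at 76 h. The groups did not overlap, but 28 h replicate 3 came close to the lowest 76 h array, and the rise of 0.71 ± 0.23 just passed the test (adjusted p = 0.0485). It was not called without 28 h replicate 1 or 2 or any 76 h replicate, at adjusted p up to 0.219. The estrogen receptor gene Esr1 had overlapping groups at 1363, 1043 and 1414 against 1241, 1123 and 1225 (-0.08, adjusted p = 0.753). Cited1, a transcriptional coregulator of the hormone-sensing lineage, stood at 306, 118 and 224 and then at 814, 652 and 474, apart, a rise of 3.14-fold (adjusted p = 0.00063).

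Among the secreted signals, Tnfsf11 encodes RANK ligand. Its intensities were 64.5, 67.9 and 80.4 at 28 h, near the array median, and 358, 361 and 361 at 76 h. The 76 h arrays lay almost on 1 value and far above the 28 h arrays, a rise of 5.10-fold (log2 2.35 ± 0.28, adjusted p = 6.84e-05). On the oil arrays the gene stayed between 35.9 and 67.7. Wnt4 stood at 271, 143 and 289 and then at 340, 271 and 319. The 76 h values were within the range of the 28 h ones or just above it, and no difference was called (0.46 ± 0.21, adjusted p = 0.147). Rspo1, encoding R-spondin 1, which strengthens WNT signals at their receptors, rose from 40.7, 35.7 and 34.4 to 362, 317 and 334. Both groups were tight, and the rise was 9.15-fold from a level below the array median (adjusted p = 1.52e-06). Rspo1 passed the filter on low values through these 76 h arrays alone, so that its entry into the test depended on them.

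Among genes of the cells that receive these signals, also read in whole glands, Elf5 stood at 149, 82.2 and 158 at 28 h and at 854, 739 and 739 at 76 h. It encodes an ETS factor of luminal progenitors and alveolar cells. Every 76 h array was more than 4 times the highest 28 h array, and the rise was 6.23-fold (log2 2.64 ± 0.24, adjusted p = 8.28e-06). Another probe set of Elf5 gave a smaller rise of 1.21 on the log2 scale, also called. Id4, a helix-loop-helix inhibitor made in basal cells, had 728, 467 and 608 against 1756, 1571 and 1481, also apart (2.70-fold, adjusted p = 1.62e-05). At 28 h its progesterone arrays were already all above the oil arrays, which lay between 177 and 228. Id2, a relative of Id4, rose by 0.51 (adjusted p = 0.0159), a call lost without 28 h replicate 1 or 76 h replicate 1 or 2. The receptor of RANK ligand, Tnfrsf11a, had overlapping groups at 103, 69.6 and 87.7 against 63.3, 65.0 and 83.2 (-0.29, adjusted p = 0.418). Of 15 genes of RANK and NF-kB signalling, Tnfsf11 alone was called, which is 6.67% beside 9.89% of all genes called higher. Areg and Prlr, known targets of the hormone in this tissue, did not pass the filter on low values and are not reported, and neither is the milk protein gene Wap. The count over the progesterone-responsive list was 7 without 76 h replicate 1 or 2.

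**Figure D2:**
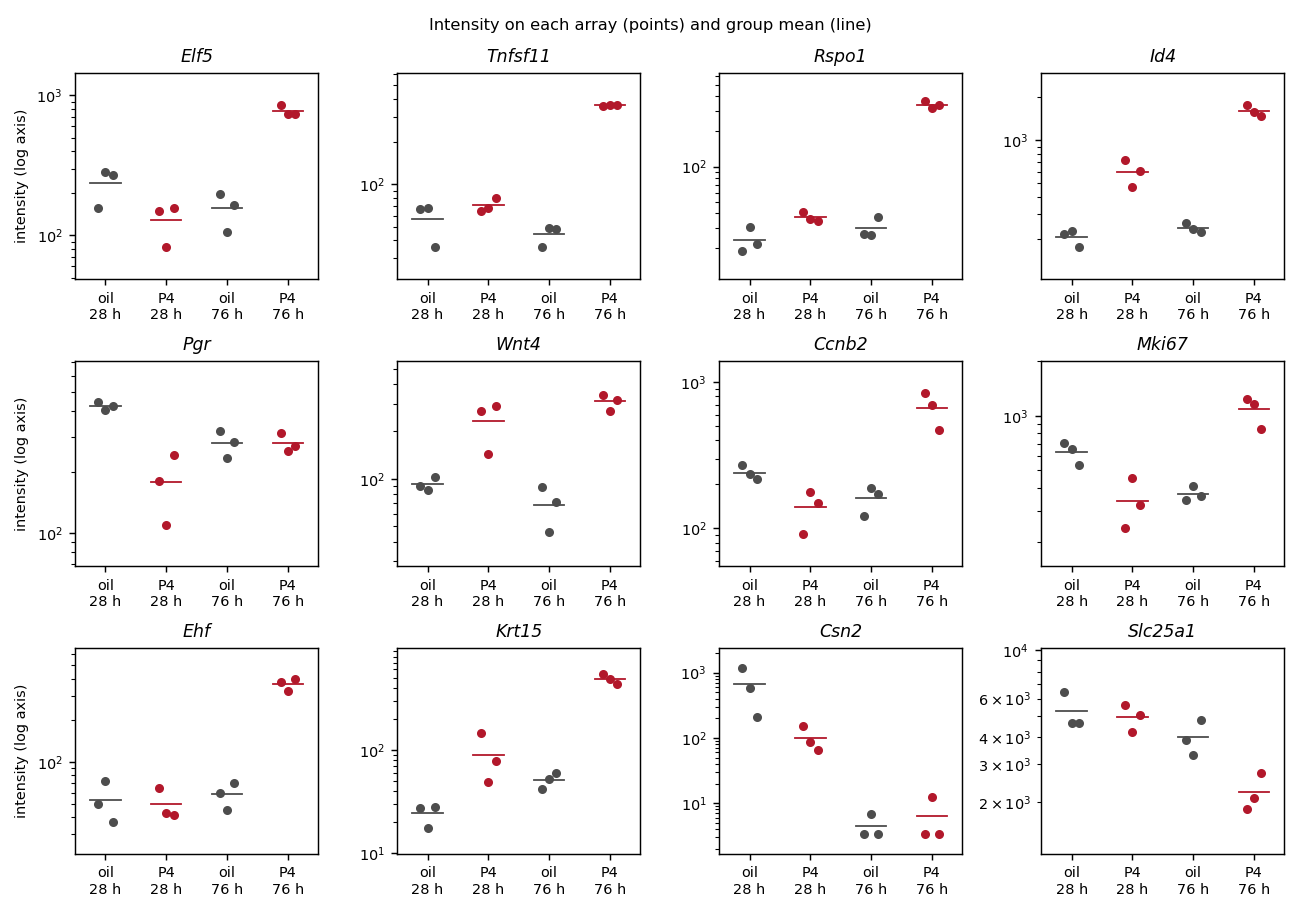
Intensity (log axis, arbitrary units) of 12 genes on the oil and progesterone (P4) arrays of 28 h and 76 h; points are arrays and lines group means. Elf5, Tnfsf11, Rspo1 and Ehf are high on the 3 progesterone arrays of 76 h and low on the other 9, whereas Csn2 is low on all 6 arrays of 76 h.

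Markers of the luminal layer rose broadly. Of 24 tested, 18 rose and none fell, with a median of 1.11, and the difference from the oil contrast was called above 0 for 18 and below 0 for 1. The largest was Ehf, at 65.0, 42.8 and 41.5 at 28 h and 375, 323 and 395 at 76 h, a rise of 7.45-fold. Other probe sets of Ehf read 2.74 and 0.69 on the log2 scale, both called. Cdh1, E-cadherin, which joins epithelial cells, stood at 665, 436 and 591 and then at 1798, 1543 and 1490, a rise of 2.89-fold (adjusted p = 2.1e-05). Both genes had non-overlapping groups. The epithelial splicing factor Esrp1 (2.13), the transcription factor Tfap2c (1.86) and the tight junction protein Cldn7 (1.67) followed. Krt8 rose by 1.39 (1179 ± 437 to 2963 ± 178), Krt18 by 1.12 (to 4341 ± 239) and Epcam by 1.45 (711 ± 230 to 1888 ± 247). Summed over the list, the luminal markers came to 14520, 8836 and 11790 intensity units at 28 h and 26610, 23580 and 25070 at 76 h. The oil arrays of both times lay between 8962 and 11070, so that the 76 h progesterone arrays stood alone and the 28 h ones straddled the oil level. In RNA of whole glands, more cells of a type and more RNA per cell cannot be told apart, here and for every marker list below.

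Basal, or myoepithelial, markers rose in part. Of 23 tested, 11 rose and none fell (median 0.36). Krt15, a keratin of basal cells, rose from 144, 48.5 and 77.6 to 546, 490 and 435, apart (5.98-fold, adjusted p = 5.08e-05), and also rose in oil by 1.10. Trp63, the p63 factor that maintains basal cells, stood at 84.7, 53.7 and 84.4 and then at 349, 329 and 292, with no overlap (4.44-fold, adjusted p = 2.01e-05). Another probe set of Trp63 read 0.12 on the log2 scale, not called. The hemidesmosome collagen Col17a1 (2.22) and the laminin-332 chains Lama3 (2.02) and Lamb3 (1.29) rose with them. The 12 members not called included the smooth muscle genes Acta2 (0.23), Myh11 (0.11), Cnn1 (0.0015), Tagln (0.33) and Mylk (0.31) and the keratin Krt17 (-0.36), while Actg2, smooth muscle gamma-actin, rose by 0.71. These 7 genes are named after their values had been seen. The summed basal markers were 18210, 15380 and 16960 and then 21020, 20340 and 22130, so that the groups did not overlap, and the oil arrays of both times lay between 13910 and 15540. Sox10, listed among nerve and Schwann cell markers and also made by mammary epithelial progenitors, rose from 278, 221 and 167 to 504, 493 and 676 (2.54-fold, adjusted p = 0.0002). Another probe set of Sox10 read 0.40 on the log2 scale, not called. Of the 11 other tested genes of the nerve list none rose, and Pmp22 (-0.39) and Cnp (-0.31) fell. Both calls were lost without 76 h replicate 1 or 2, that of Pmp22 also without 28 h replicate 3, and that of Cnp also without 28 h replicate 2 or 76 h replicate 3.

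**Figure D3:**
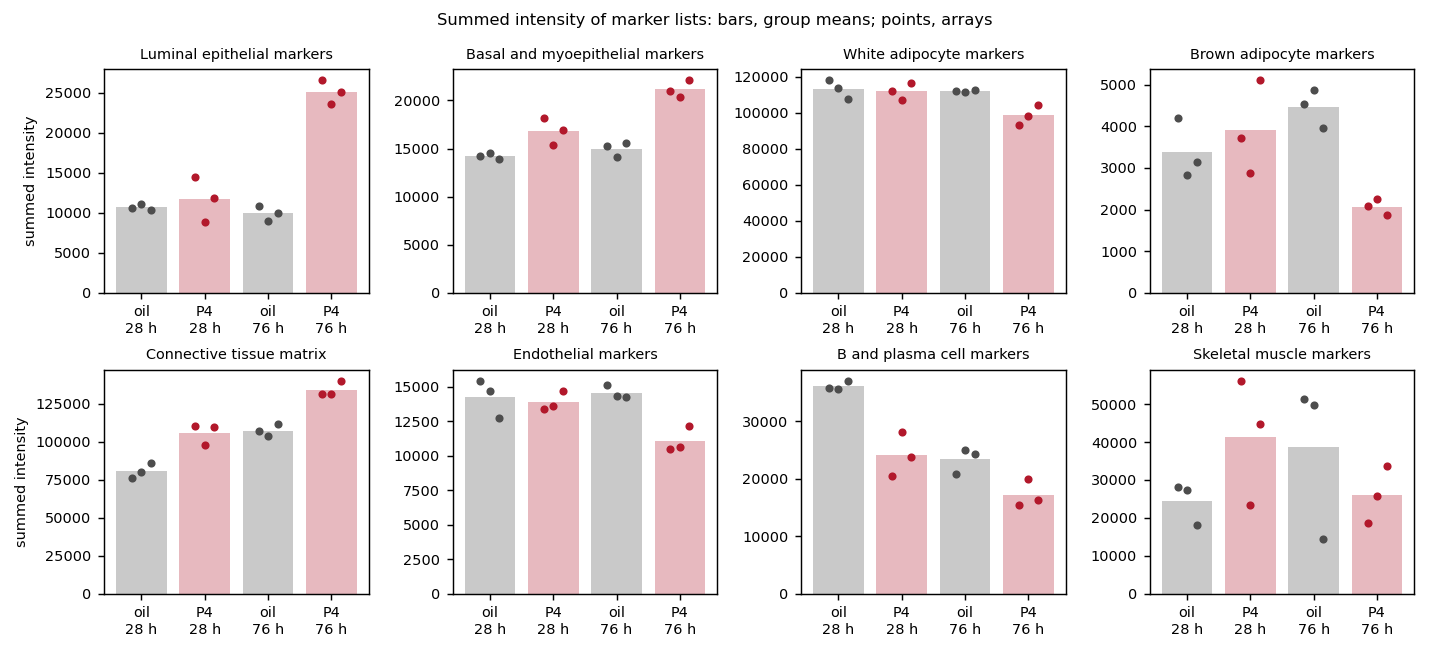
Summed intensity of 8 marker lists on the oil and progesterone (P4) arrays of 28 h and 76 h. Sums include list members on the array that did not pass the filter on low values. Bars are group means, points arrays, and vertical axes start at 0. The 76 h progesterone arrays are highest for the luminal, basal and matrix lists. They are lowest for the white adipocyte, brown adipocyte, endothelial and B and plasma cell lists, and the groups of the muscle list overlap.

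Beyond Rspo1, the WNT list moved in several of its parts. Of 26 tested, 14 rose and none fell (median 0.49), while 5 rose and none fell in oil (median 0.28), and the difference was called above 0 for 4 and below 0 for 2. Among ligands, Wnt5b stood at 150, 106 and 164 and then at 365, 310 and 295, apart, a rise of 1.23 on the log2 scale (adjusted p = 0.0012). The secreted inhibitors Wif1 (1.31), Dkk3 (1.09) and Sfrp1 (0.99) rose too. Another probe set of Dkk3 read 0.92, called, and those of Sfrp1 read 0.31 to 0.86, none called. Axin2, a target gene of the canonical pathway, had a difference of -0.02 (adjusted p = 0.912) and Lef1 of -0.33 (adjusted p = 0.106), both named after their values had been seen. In the EGF family 3 of 11 genes rose. Erbb3, a receptor of neuregulins, stood at 645, 391 and 576 and then at 1625, 1388 and 1405, apart, at 2.80-fold (adjusted p = 4.86e-05). Egfr (0.60) and Adam17 (0.41), the protease that sheds EGF family ligands, rose by less. Egfr lost the call without 28 h replicate 2 or 76 h replicate 1, and Adam17 without each array but 76 h replicate 3, so that the count was 1 without 28 h replicate 2 or 76 h replicate 1. Another probe set of Egfr read -0.21, not called.

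Milk protein genes and genes of secretory cells did not move together. Of 13 tested, 4 rose and 4 fell. Csn2, encoding beta-casein, stood at 153, 86.3 and 64.7 at 28 h and at 3.38, 12.5 and 3.38 at 76 h, where 3.38 is the lowest value of the table. The groups were apart, and Csn2 fell by 3.43 on the log2 scale with values floored at 7.38 (adjusted p = 0.00014). In oil the gene fell from 1194, 575 and 212 to 3.38, 6.76 and 3.38, a difference of -6.16, so that it was near background at 76 h under both treatments. Muc15 rose from 161, 72.2 and 136 to 1348, 1191 and 1069 (10.3-fold), and Wfdc18, a secreted WAP-domain protein, from 2233, 1014 and 1430 to 5219, 5162 and 5126 (3.49-fold). For both, the 76 h arrays were apart from and closer together than the 28 h arrays. Csn3, kappa-casein, rose by 0.93 and Muc1 by 0.97, and Btn1a1, a milk fat globule protein, fell by 1.09 on the log2 scale. Csn1s2a, alpha-casein S2, was not called with progesterone (-1.45, adjusted p = 0.0847) and fell in oil (-5.11). Another probe set of Csn1s2a read 0.20 with progesterone, not called.

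Genes of the connective tissue matrix were higher at 76 h than at 28 h with progesterone and also in oil, where the 28 h arrays were low. With progesterone 21 of 32 rose and none fell (median 0.42), and in oil 22 rose and none fell (median 0.47). The difference was called above 0 for 1 member and below 0 for 4. Col5a2, a collagen V chain, stood at 3054, 2608 and 3495 and then at 5816, 5677 and 5420 with progesterone, and at 1678, 1745 and 2288 and then at 3027, 3023 and 3127 in oil. In each treatment the 76 h arrays were all higher, by 0.89 ± 0.10 and 0.70 on the log2 scale. Vcan, the proteoglycan versican, rose by 2.14 with progesterone and 1.49 in oil, the microfibril protein Mfap2 by 1.25 and 0.90. The member called above 0 for the difference was Tnc, tenascin C, at 224, 243 and 349 and then at 710, 852 and 590 with progesterone (2.66-fold) and between 200 and 280 on the 6 oil arrays. Another probe set of Tnc read 0.13 on the log2 scale with progesterone, not called. The summed matrix list was 110600, 97800 and 110000 and then 131600, 131800 and 140200 with progesterone. In oil it lay between 76390 and 86020 at 28 h and between 103800 and 111600 at 76 h. The 28 h oil arrays were thus lower than all others here, and the 76 h oil arrays were at the level of the 28 h hormone arrays. On the oil arrays of 4 h the sum lay between 111200 and 122000, and on those of 16 h between 103900 and 117000. The 28 h oil arrays thus stood below the oil arrays of every other time, and the rise in oil starts from that low level. The 76 h progesterone arrays stood above every other array of the series. Among 21 matrix proteases and their inhibitors 9 rose and 2 fell, with Adamts4 at 1.69, Timp1 at 1.30 and the plasminogen activator Plat at 1.07. In oil 12 rose, Plat among them (1.71). Adamts15 rose with progesterone (1.01) and not in oil (-0.87, adjusted p = 0.161), and the difference was called (1.88, adjusted p = 0.0299). Its rise was not called without 28 h replicate 2 or 76 h replicate 1 or 2, at adjusted p up to 0.105. The 2 that fell, named after their values had been seen, were Timp3 (-0.25) and Timp4 (-0.81), and the count of falls was 1 without any 1 array but 76 h replicate 3.

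Genes that make fat fell together. Of 23 genes of fatty acid and triglyceride synthesis, 18 fell and none rose (median -0.51), whereas in oil 2 rose and 1 fell (median 0.08), and 17 were called below 0 for the difference. Slc25a1, the carrier that exports citrate from mitochondria for lipid synthesis, stood at 5605, 4230 and 5072 at 28 h and at 1857, 2103 and 2747 at 76 h, apart, a fall of 2.24-fold (adjusted p = 5.34e-05). Acss2, which makes acetyl-CoA from acetate, stood at 2344, 1861 and 3370 and then at 1144, 1283 and 1005, also apart (2.15-fold lower, adjusted p = 0.000382). The acyltransferase Mogat1 (-0.94), the elongase Elovl6 (-0.93) and the acetyl-CoA carboxylase Acacb (-0.86) fell likewise. The 5 members not called were Pnpla3 (-0.51), Fads2 (-0.16), Elovl5 (-0.15), Fads1 (0.05) and Scd1 (0.12), named after their values had been seen. Without 76 h replicate 1, the array with the lowest list score, the count of falls was 10. In cholesterol synthesis 4 of 20 fell with progesterone (median -0.30), namely Sc5d (-0.75), Nsdhl (-0.65), Mvk (-0.62) and Mvd (-0.54). In oil 7 rose and none fell (median 0.41), and 11 were called below 0 for the difference. The cholesterol count was 1 without 76 h replicate 1 and 2 without 28 h replicate 1 or 76 h replicate 2. Other probe sets read 0.10 for Mvk, -0.15 and -0.39 for Sc5d and -0.08 for Mvd, none of them called.

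White adipocyte markers were lower in part as well. Of 19 white adipocyte markers 9 fell and none rose (median -0.29). Slc2a4, the insulin-regulated glucose transporter, stood at 2358, 1995 and 2430 and then at 1246, 1255 and 1445, apart (1.72-fold lower, adjusted p = 4.86e-05). The lipases Lipe (-0.51) and Pnpla2 (-0.49) and the glycerol phosphate dehydrogenase Gpd1 (-0.47) fell, while Adipoq, at 11080 ± 602 and 10730 ± 526, did not pass the test (-0.05, adjusted p = 0.624). The count was 4 without 76 h replicate 1, with Lipe and Pnpla2 among the calls lost, and Lipe was also lost without 28 h replicate 1 or 76 h replicate 2. The summed white adipocyte list was 112300, 107000 and 116700 and then 93200, 98300 and 104600. The groups did not overlap, and the oil arrays of both times lay between 107800 and 118300. Brown adipocyte markers gave 4 falls and 1 rise among 10 (40% and 10%, beside 5.34% and 9.89% of all genes). These were Cidea, which both lists hold, the potassium channel Kcnk3 (-1.11), the cytochrome oxidase subunit Cox8b (-0.90) and the factor Prdm16 (-0.81), against the deiodinase Dio2 (0.76), whose call was lost without any 1 array but 28 h replicate 3. Prdm16 lost its call without 76 h replicate 1. Another probe set of Kcnk3 read -0.35, not called. Ucp1, the uncoupling protein that defines brown fat, was not called (-1.16, adjusted p = 0.175) and is named after its value had been seen.

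Energy metabolism showed smaller falls. In glycolysis 7 of 16 fell, among them Hk2 (-0.68), Pfkfb3 (-0.60), Pfkl (-0.59) and the pyruvate kinase Pkm (-0.40). The exception was Aldoc, an aldolase, which rose from 237, 179 and 229 to 610, 487 and 566, apart (1.37 ± 0.17, adjusted p = 8.01e-05). The count of falls was 2 without 76 h replicate 1 and 4 without 28 h replicate 1 or 76 h replicate 2. Another probe set of Pfkfb3 read -0.18, not called. All 30 tested genes of the mitochondrial respiratory chain had differences below 0 (median -0.18), and 5 were called, such as Uqcrc1 (-0.59) and Cycs (-0.50), or 11 without 28 h replicate 2.

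**Figure D4:**
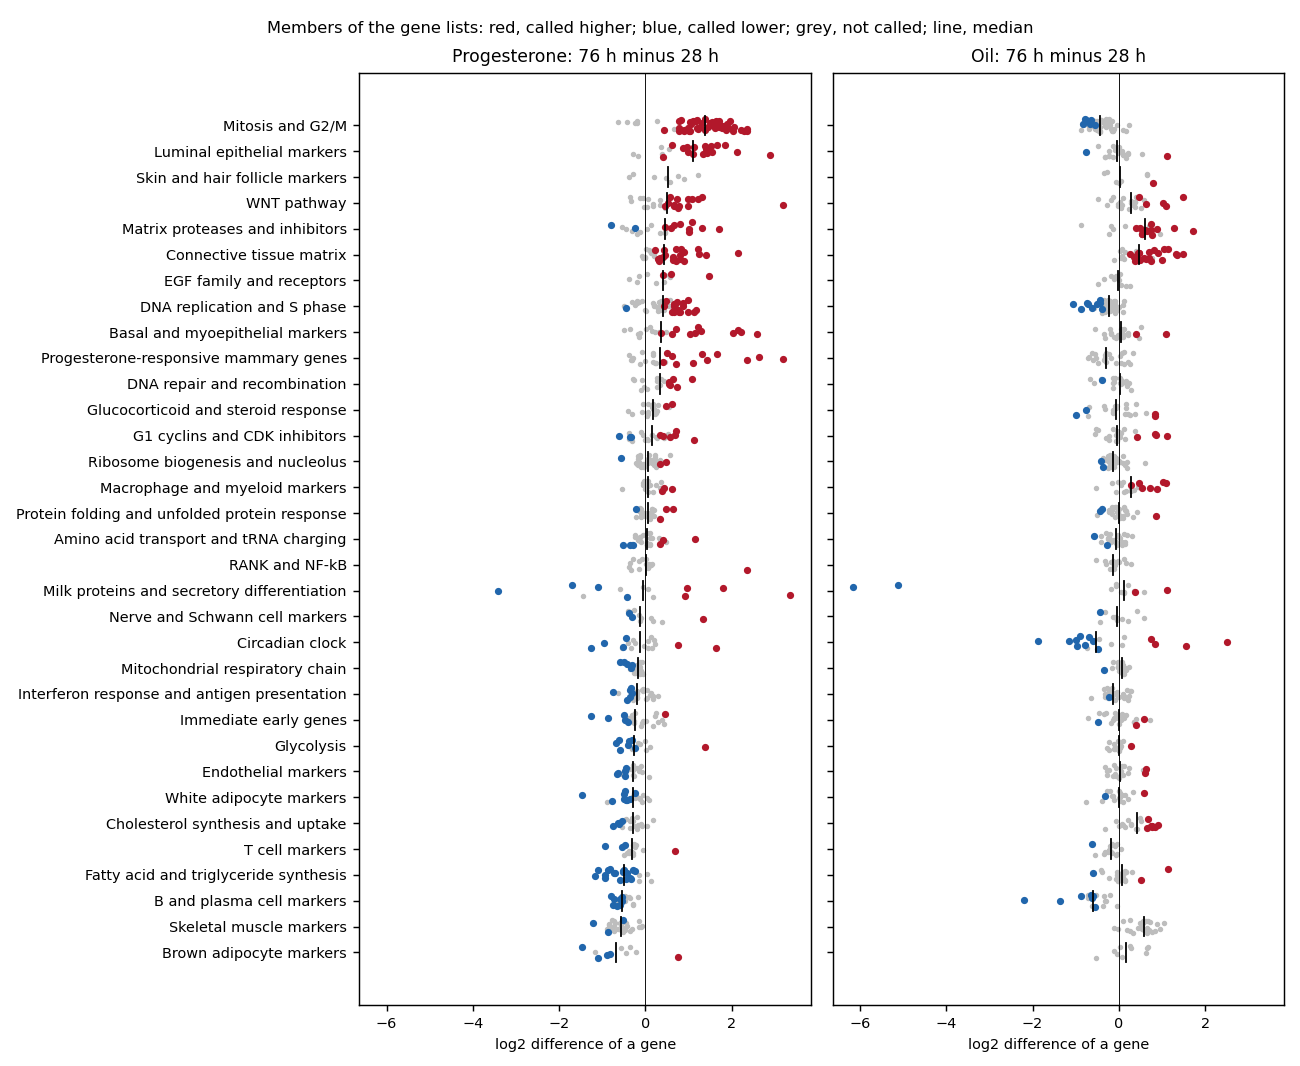
Difference between 76 h and 28 h (log2, horizontal axis) of every tested member of the lists with at least 8 tested members, for progesterone (left) and oil (right); red and blue points were called higher and lower, grey points were not called, and black lines are medians. Mitosis and luminal genes lie mostly to the right of 0 in the left panel and around or below 0 in the right one, and the matrix lists lie to the right in both panels.

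B cell markers fell in both treatments, though from different 28 h levels, and the other immune lists had smaller median differences with progesterone. Of 18 B and plasma cell markers 8 fell with progesterone (median -0.53) and 8 in oil (median -0.61), and none was called for the difference. The summed list lay between 35620 and 36970 on the 28 h oil arrays and between 20750 and 28920 on the oil arrays of the other times. With progesterone it lay between 20490 and 28030 at 28 h and between 15360 and 20000 at 76 h. Ms4a1, encoding CD20, stood at 1728, 2558 and 2208 and then at 1272, 1683 and 1181, apart with a small margin (-0.65, adjusted p = 0.0193). The B cell count was 1 without 28 h replicate 2 or 76 h replicate 1, and 2 without 76 h replicate 3. T cell markers gave 3 falls and 1 rise among 16 (18.8% and 6.25%, beside 5.34% and 9.89% of all genes). The falls (Cd4 -0.93, Cd3d -0.54 and Cd2 -0.47) were 7 without 28 h replicate 1, 1 without 28 h replicate 3 or 76 h replicate 3 and 0 without 28 h replicate 2 or 76 h replicate 1. Another probe set of Cd4 read -0.18, not called. Thy1, which fibroblasts also carry, rose by 0.68. In oil 1 T cell marker fell and none rose, and 1 was called above 0 for the difference. Interferon and antigen presentation genes gave 6 falls of 27, such as H2-D1 (-0.43), or 3 without 28 h replicate 2 and 2 without 76 h replicate 1. In oil 1 of the 27 fell and none rose, and none was called for the difference. Of 20 macrophage markers 3 rose (Cd163 0.61, Mrc1 0.44 and Fcgr3 0.37), which is 15% beside 9.89% of all genes. In oil 7 rose, and with progesterone the count was 1 without 28 h replicate 2. Endothelial markers, which are not an immune list, gave 5 falls of 20 (median -0.29), led by Icam2 (-0.67) and Nos3 (-0.63). The count was 3 without 28 h replicate 1 or 2 or 76 h replicate 1 or 2, and 8 without 76 h replicate 3. In oil 2 endothelial markers rose and none fell (median 0.03), and 2 were called below 0 for the difference.

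Skeletal muscle RNA varied between arrays. The summed muscle list was 56130, 23430 and 44750 at 28 h and 18690, 25890 and 33580 at 76 h, so that the groups overlap, and on the oil arrays of these times it ranged from 14510 to 51410. All 27 tested members had differences below 0 (median -0.57, and 0.58 in oil), of which Ckm (-1.23), Des (-0.86) and Myoz1 (-0.53) were called. That is 11.1%, beside 5.34% of all genes called lower. The muscle count was 14 without 28 h replicate 2, and 1 without 28 h replicate 1 or 3 or 76 h replicate 1 or 2. The part of muscle, or of any other marker list, in the results above was not tested.

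Clock genes differed between these times in both treatments although both lie 4 h past a whole number of days. With progesterone 2 of 18 rose and 4 fell, and in oil 4 rose and 9 fell. The progesterone shares were 11.1% and 22.2%, beside 9.89% and 5.34% of all genes. Npas2, a partner of BMAL1, rose from 26.8, 22.1 and 22.5, below the array median, to 87.8, 77.6 and 58.0 (1.63, and 2.50 in oil). Dbp, a clock-controlled factor, fell from 1306, 1360 and 1945 to 762, 827 and 732 (-0.97, and -1.88 in oil). Nr1d1, a repressor within the clock, fell too (-1.26), and the groups did not overlap for any of these genes. The count of clock rises was 1 without any 1 array but 28 h replicate 3. Among 23 immediate early genes 5 fell and 1 rose, led by Maff (-1.27), Btg2 (-0.86), Zfp36 (-0.49) and Ier2 (-0.48), against Ier3 (0.46). The falls were 1 without 28 h replicate 1 or 76 h replicate 1, 2 without 76 h replicate 2 and 3 without 28 h replicate 2 or 76 h replicate 3, and the rise of Ier3 was lost without 28 h replicate 2 or any 76 h replicate. Btg2 lost its call whichever 1 array was left out, and its other probe set read -0.20, not called.

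Lists of growth and protein supply had medians between 0.04 and 0.06. Rises made up 5.41% of the ribosome, 9.68% of the folding and 11.5% of the amino acid list, beside 9.89% of all genes. Falls made up 2.7%, 3.23% and 11.5%, beside 5.34% of all genes. The shares of rises were thus near or below that of all genes. Of 37 genes of ribosome biogenesis 2 rose (Npm1 by 0.47 and Pes1 by 0.33) and 1 fell (Bysl, -0.56). The call of Pes1 was lost whichever 1 array was left out. The summed ribosome biogenesis list was nevertheless 29100, 29140 and 28080 at 76 h, above every other array of the series, beside 25680, 26140 and 26080 at 28 h. Of 31 genes of protein folding 3 rose (Kdelr3 0.63, Pdia6 0.48 and Ssr3 0.33) and 1 fell (Xbp1, -0.22). Of 26 genes of amino acid transport and tRNA charging 3 rose and 3 fell, the amino acid transporter Slc7a5 by 1.14 and Wars by -0.52 at the extremes. Without 76 h replicate 1 or 2, 1 rise was called in each of these 3 lists, and the calls of Slc7a5 and Xbp1 were among those lost. Amino acid falls were 1 without 76 h replicate 1 or 2 or 28 h replicate 1. Without 28 h replicate 1 the count was 1 for ribosomal rises, and without 28 h replicate 2 or 3 it was 1 for ribosomal rises. Among 22 glucocorticoid and steroid response genes Lcn2 (0.61) and the metallothionein Mt2 (0.49) rose, which is 9.09%, also near the share of all genes. That count was 4 without 28 h replicate 3 and 1 without 76 h replicate 1 or 2. None of 3 red blood cell and 8 skin markers was called.

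The vehicle groups give the same interval without the hormone. Between 28 h and 76 h in oil, 607 genes (4.91%) were higher and 429 (3.47%) lower, 8.39% in all, and this contrast shares no array with the progesterone contrast. It rested on single arrays, with 477 calls without 76 h replicate 1, 570 and 583 without 28 h replicates 1 and 2 and 673 without 76 h replicate 2 of the oil arrays. Higher under both treatments were 185 genes, 15.2% of the progesterone rises and 30.5% of the oil rises. Lower under both were 126 genes, 19.1% of the progesterone falls and 29.4% of the oil falls, and 24 rose with progesterone and fell in oil, while 19 did the reverse. The largest rises in oil were those of Npas2, Atp6v1b1, Col23a1 (2.41), the steroid-reducing enzyme Akr1c18 (2.24) and Fcna (2.24), and the largest falls those of Csn2, Csn1s2a, the protease inhibitor Slpi (-2.40), the immunoglobulin locus Igk (-2.20) and Dbp. With progesterone Akr1c18 (0.64) and Fcna (0.85) rose by less, and Col23a1 (0.89, adjusted p = 0.41), Slpi (-0.93, adjusted p = 0.385) and Igk (-0.46, adjusted p = 0.58) were not called.

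The difference between both contrasts, tested as an interaction in all 24 arrays, was called above 0 for 558 genes (4.52%) and below 0 for 386 (3.12%), 7.64% in all. The split was 528 above and 572 below 0 with quantile normalization. Serpinb11 (4.14), Kera (3.67), Csn1s2a (3.66), Lama1 (3.30) and Elf5 (3.24) had the largest fitted values above 0, and all but Elf5 rest on values near background in at least 1 group. Serpinb11 stood between 7.93 and 22.4 on all 6 oil arrays, so that the 76 h progesterone arrays were the high ones. For Csn1s2a the oil contrast was the larger of both (-5.11 against -1.45). Kcnj6 (-3.28), Angptl8 (-2.95), Gap43 (-2.54), Ppp1r3b (-2.05) and Syt12 (-1.79) led those below 0. Angptl8, a feeding-induced regulator of triglyceride handling, stood at 333, 190 and 731 and then at 115, 134 and 210 with progesterone, where the groups overlap, and at 323, 139 and 227 and then at 626, 596 and 888 in oil. It was thus lower at 76 h than most 28 h arrays with the hormone and higher without it. Ppp1r3b, which targets a phosphatase to glycogen, was not called with progesterone (-0.83, adjusted p = 0.0909) and rose in oil (1.23). Pgr was called above 0 as well (1.33), with a rise under progesterone and a difference of -0.62 in oil (adjusted p = 0.0667).

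**Figure D5:**
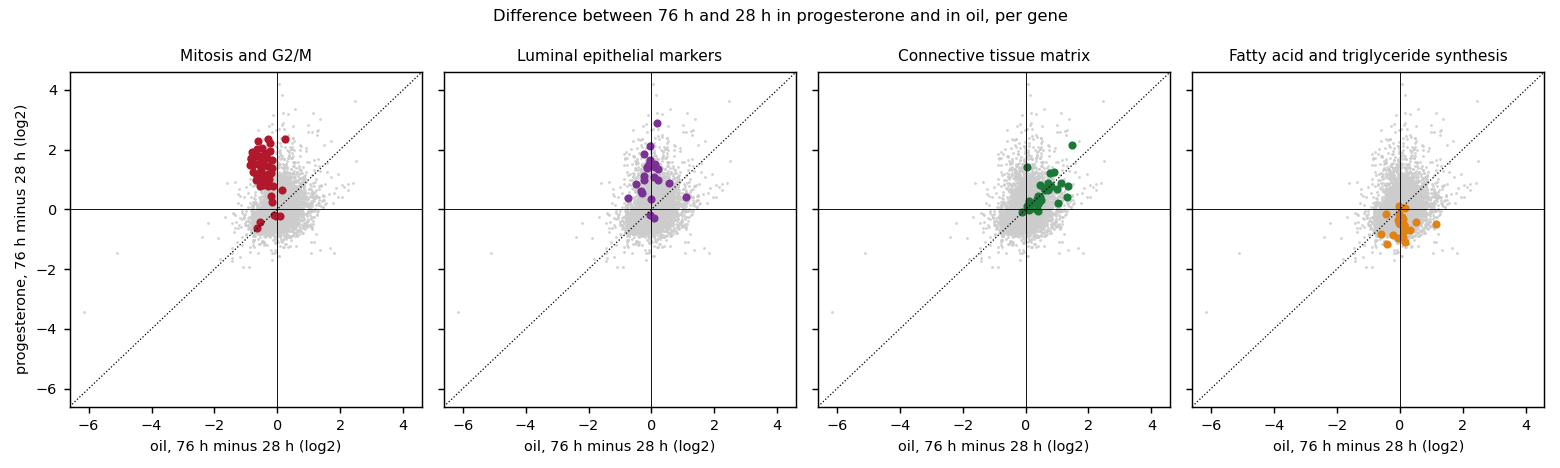
Difference between 76 h and 28 h (log2) with progesterone (vertical axis) against that in oil (horizontal axis) for all 12352 genes (grey) and the members of 4 lists (coloured); the dotted line marks equal differences. All mitosis genes but Cenpf, Foxm1 and Mybl2 lie above the dotted line, with 52 of 55 left of 0 in oil, and most connective tissue matrix genes lie near it.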

How the data were processed

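Total RNA of mammary glands, pooled from 5 mice per array, was labelled and hybridised to the arrays, per the labels' protocols. The authors deposited linear intensities of 45101 probe sets, for which no source used here names the software or the scaling. As array medians were nearly equal, no further scaling was applied.

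Values were floored at 7.38 (the 10th percentile) and taken to log2. Control probe sets (64) and those with several symbols (932) or none (9160) were left out. Symbols came from the platform annotation, updated through Entrez IDs (34754 looked up) in RefSeq GRCm38.p6. A gene was represented by the probe set of highest mean, and kept if above the array median on at least 3 of 24 arrays. limma 3.58.1 in R 4.3.3 (eBayes with an intensity trend) was fitted to the 12 progesterone arrays, and to 24 for the oil contrast and the difference of contrasts. Tests were two-sided, with Benjamini-Hochberg adjustment over 12352 genes and a threshold of 0.05. Precision is limited by the number of arrays.

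Named genes were the 12 largest rises and falls that were called without overlap (no clone names), up to 5 called members per list by size, the 5 largest each way of the oil contrast and of the difference, 19 genes always named, and cell type markers. The arrays compared and the gene lists were chosen with earlier results of these data known. Scripts were tested on simulated data.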

Additional observations from a re-analysis of the deposited data

Results flagged for a closer look

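The difference between 76 h and 28 h was itself compared between progesterone and oil, by an interaction term in limma over 24 arrays. It was called above 0 for 558 genes and below 0 for 386 at an adjusted p under 0.05, with 3 arrays in each group. Values are log2 differences with progesterone minus those in oil.

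Among genes of the dividing cell it was 2.48 for Mki67, 2.27 for Ccna2, 0.79 for Mcm2, 0.72 for Ccnd1 and 0.62 for Myc. Mcm2 was called here although its progesterone contrast was not, and the oil contrast fell by 0.50. Among genes of the progesterone response it was 3.24 for Elf5, 2.66 for Tnfsf11, 1.33 for Pgr and 1.22 for Id4. It was 4.14 for Serpinb11, 3.67 for Kera and 3.30 for Lama1, and 3.66 and 2.73 for the caseins Csn1s2a and Csn2. These 5 sizes rest on values near background in at least 1 group, and for Kera and the caseins on the floor. Both caseins had higher intensities at 28 h in oil than with progesterone and were near background at 76 h under both treatments.

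Below 0 lay Kcnj6 (-3.28), Angptl8 (-2.95), Gap43 (-2.54), Ppp1r3b (-2.05) and Syt12 (-1.79). Kcnj6 and Ppp1r3b were not called in the progesterone contrast alone.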

How the results depend on the processing

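Of the 1880 calls with progesterone (1221 higher, 659 lower), 370 were also at least 2-fold (317 higher, 53 lower) and 839 passed an adjusted p of 0.01 (619 higher, 220 lower). The count was 1536 without the filter, 2009 with quantile normalization (1195 higher, 814 lower), 1894 with arrays centred on their medians (1377 higher, 517 lower), 2050 from the 6 arrays alone and 2557 from all 24. Leaving out 1 array moved the counts as well. With progesterone the total ranged from 854 to 2121, the rises from 617 to 1484 and the falls from 237 to 637, lowest without 76 h replicate 1. Without 76 h replicate 2 there were 747 rises and 324 falls, and without 28 h replicate 2 there were 743 rises. In oil the total ranged from 477 to 1450, the rises from 341 to 621 and the falls from 136 to 829, lowest without 76 h replicate 1 of oil and highest without 28 h replicate 3 of oil. The difference of the contrasts ranged from 621 to 1156, with 373 to 738 above 0 and 248 to 449 below 0. Of the 161 genes that the naming rule picked and that were called with progesterone (not all of them are printed, and genes named after their values were seen and further cell type markers are not among them), 98 kept the call without any 1 array and 63 lost it without at least 1. The sign turned for Col23a1 in oil without the filter (-0.2451), and for another probe set of E2f3 (-0.2341), Egfr (-0.206), Mvk (0.1024), Per3 (0.31), Pes1 (-0.1256) and Slc38a2 (-0.0582), none of them called, and the cause was not tested. Among genes not called with progesterone, another probe set had the opposite sign for Csn1s2a (0.2023 against -1.4522) and Esr1 (0.0926 against -0.0786), not called either. Of 62 of the 161 genes with another probe set, 32 had one called in the same direction and 0 in the opposite one. For 30 of the 62 no other probe set was called. With a replicate block the counts were 1504 with progesterone, 987 in oil and 895 for the difference. The deviations of 28 h and 76 h progesterone arrays with the same number correlated at -0.058, -0.052 and -0.23, and those with different numbers at -0.18 to 0.201. With 3 arrays per group these values cannot show whether arrays of the same number share a batch, which was not tested.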
